A study of Homo sapiens with 12 samples.

Results

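Nilotinib was compared with its DMSO vehicle in K562 cells that received no hemin. The libraries were chosen by their labels: 3 mock-treated biological replicates with 0.1 μM nilotinib and 3 mock-treated biological replicates with DMSO, 6 of the 12 libraries of the series. The other 6 received 50 μM hemin for 24 h, with or without nilotinib, and entered the filter that chose the genes tested, the estimate of the spread and the comparison of the nilotinib effects at the end. Of the 58735 genes in the deposited table, 20821 passed the expression filter and were tested. K562 is a single erythroleukemia line grown in culture. The methods give 24 h of nilotinib or vehicle before hemin, and the libraries without hemin carry the time 0 in their names. No drug dose but 0.1 μM was sequenced.

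K562 carries the BCR-ABL1 fusion kinase, which keeps the RAS-ERK, STAT5 and PI3K-AKT pathways active without a growth factor. Nilotinib binds the ABL1 kinase domain and blocks its activity. K562 cells can move toward the erythroid, the megakaryocytic or the myeloid lineage, and a small share of them makes hemoglobin without any inducer. The measurements below are of RNA, so kinase activity, phosphorylation and protein were not measured.

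The threshold was an adjusted p under 0.05 in edgeR's quasi-likelihood test, Benjamini-Hochberg adjusted over all genes tested, and a gene is said below to have risen or fallen only when it passed. Of the genes tested, 8851 passed, a share of 42.5%. The higher genes numbered 4304 (20.7%) and the lower genes 4547 (21.8%), so a list of genes with shares near these carries no news about its members. With upper-quartile factors in place of TMM the split turned, to 5068 higher and 3829 lower. The median log2 fold change over all genes tested was 0.00, with quartiles of -0.55 and 0.60. At 2-fold or more there were 2511 higher and 2361 lower genes, and at 8-fold or more 329 and 419. Of the genes tested, 61% had values that did not overlap between the 3 and the 3 libraries. With groups of 3, an exact permutation test of a single gene cannot go below p = 0.1, so the test across genes carries the calls.

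Levels below are counts per 1000000 reads after TMM scaling (CPM), and differences are log2 fold changes, nilotinib over DMSO. The value marked s.e. is the size of the fold change divided by the square root of the test's F statistic. It is an approximate standard error worked back from the test, not one estimated separately, and is least reliable where a group had almost no counts. The first principal component of the 6 libraries held 79.0% of the variance and set the groups apart. The second held 7.19% and ran from nilotinib replicate 1 to nilotinib replicate 3. Log2 levels correlated between replicates with r from 0.985 to 0.992. The DMSO libraries held 50081268, 40418880 and 50506990 counts, and the nilotinib libraries 36893606, 33457078 and 34006073. All nilotinib libraries were smaller than all DMSO libraries.

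**Figure D1:**
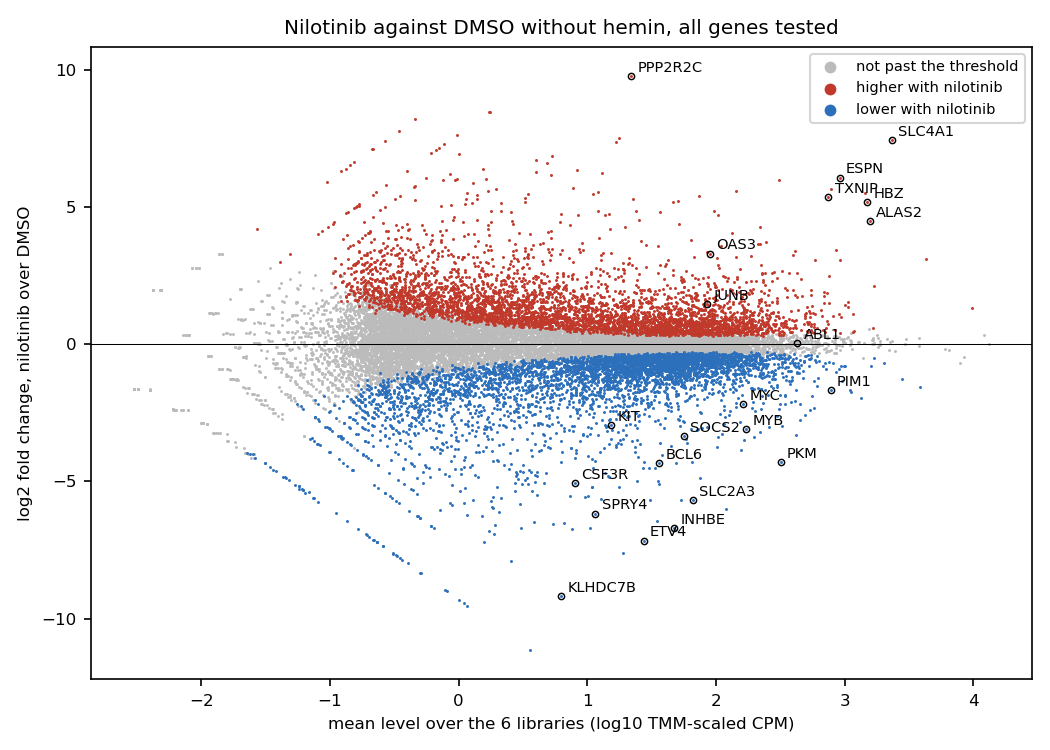
Log2 fold change against mean level for the genes tested, without 33 that had no count in these 6 libraries. SLC4A1 rose by 7.42 and ETV4 fell by 7.15.

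The 7 erythroid identity genes listed for K562 were all tested, and 6 of them rose with a list median of 1.82. Their summed level was 922, 1142 and 1360 CPM with DMSO and 3302, 4707 and 4145 CPM with nilotinib. In deposited FPKM, a level per gene length, GATA1 was the most abundant of them with DMSO, at a mean of 195, and the fetal globin gene HBG1 with nilotinib, at 978 after 116 with DMSO. In RNA from a whole culture, more cells of a kind and more RNA per cell of that kind cannot be told apart. Of 13 markers of other cell types, KRT5, CDH5 and MS4A1 had no count in any of the 6 libraries, CD3E was too low to test, and 9 were tested. The summed level of these was 99.2, 87.2 and 81.2 CPM with DMSO and 53.8, 66.0 and 70.1 CPM with nilotinib, most of it from the epithelial adhesion gene EPCAM, which fell (-0.55, s.e. 0.16). Without nilotinib replicate 1, EPCAM did not pass (adjusted p 0.0544 in edgeR's quasi-likelihood test, Benjamini-Hochberg adjusted). The T cell marker CD3D fell (-5.06, s.e. 0.58), as did the collagen gene COL1A2 (-2.98, s.e. 0.45). COL1A1, another collagen gene, rose by 0.96, but not without DMSO replicate 3 (0.77) or without nilotinib replicate 3 (0.67). The markers CD14, CD79A, NKG7 and ALB stayed under 1 CPM in every library.

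BCR-ABL1 is transcribed from the BCR promoter and ends in ABL1 sequence, so reads of the fusion count toward both genes. ABL1 was at 387, 429 and 451 CPM with DMSO and 442, 436 and 433 CPM with nilotinib. The groups overlapped and ABL1 did not pass (0.05, s.e. 0.14). BCR, at 224, 243 and 256 CPM with DMSO and 280, 296 and 306 CPM with nilotinib, was higher in all 3 nilotinib libraries, yet did not pass (0.29, s.e. 0.12), though it passed in 7 of 18 alternatives. Of the adaptors that carry the signal from the kinase, GAB2, which links the kinase to RAS and PI3K, was at 210, 247 and 259 CPM with DMSO and 38.4, 50.9 and 57.2 CPM with nilotinib. Every nilotinib library was far below every DMSO library, and GAB2 fell by 2.29 in log2 (s.e. 0.19). CBL, the ubiquitin ligase that tags active kinases, fell (-0.86, s.e. 0.14), and CRKL, the adaptor whose phosphorylation is read as a sign of BCR-ABL1 activity, did not pass (0.04, s.e. 0.13), nor did SHC1 (0.17, s.e. 0.16) or SOS1 (0.20, s.e. 0.13). GRB2 fell but was close to the threshold (-0.29, s.e. 0.11) and did not pass without DMSO replicates 2 (-0.28) and 3 (-0.29) or nilotinib replicates 1 (-0.24), 2 (-0.33) and 3 (-0.35). In all, GRB2 passed in 9 of 18 alternatives, with a weakest value of -0.18. The phosphatase gene INPP5D (SHIP1) rose (0.65, s.e. 0.17).

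Nilotinib also binds kinases other than ABL1. The stem cell factor receptor gene KIT was at 22.4, 31.1 and 27.9 CPM with DMSO and 2.56, 4.32 and 3.78 CPM with nilotinib. The groups were far apart, and KIT fell (-2.94, s.e. 0.27). The collagen receptor DDR1 rose (0.44, s.e. 0.13), but it did not pass without DMSO replicate 1 (0.39), DMSO replicate 2 (0.42) or nilotinib replicate 2 (0.37), while its relative DDR2 fell (-2.31, s.e. 0.29) from a low level. NQO2, an oxidoreductase that nilotinib also binds, fell (-1.04, s.e. 0.16). CSF1R stayed under 1 CPM and did not pass (0.84, s.e. 0.57). PDGFRB had 17, 1 and 1 counts with DMSO and 0, 0 and 1 with nilotinib and did not pass, and PDGFRA had none. Of the 16 tested genes among the 17 listed targets and adaptors, 2 rose and 6 fell, with a median of -0.08.

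ERK signalling induces its own brakes, the Sprouty and SPRED proteins and the dual-specificity phosphatases, and their RNA is used as a readout of pathway output. SPRY4 was at 27.0, 23.0 and 18.5 CPM with DMSO and 0.330, 0.292 and 0.317 CPM with nilotinib. Its level with nilotinib was close to 0 in all 3 libraries, and SPRY4 fell by 6.17 in log2 (adjusted p 2.3e-10 in edgeR's quasi-likelihood test, Benjamini-Hochberg adjusted). SPRED1, which holds back RAS at the membrane, was at 32.0, 32.0 and 30.8 CPM with DMSO and 7.20, 5.60 and 6.57 CPM with nilotinib. It fell (-2.29, s.e. 0.15), with the DMSO replicates close together, and SPRED2 fell less (-1.25, s.e. 0.12). SPRY2 fell (-1.48, s.e. 0.23), as did the phosphatase genes DUSP5 (-2.0, s.e. 0.26) and DUSP7 (-0.77, s.e. 0.19). DUSP4 fell (-1.07, s.e. 0.39) from under 1 CPM and did not pass without DMSO replicates 2 (-1.01) and 3 (-1.03) or nilotinib replicates 1 (-0.95) and 3 (-0.92). SPRY1 did not pass (-0.19, s.e. 0.36), and SPRED3 rose (1.0, s.e. 0.30), though not without DMSO replicate 1 (0.89) or nilotinib replicate 3 (0.77). DUSP6, a widely used ERK readout, had at most 10 counts in a library and was not tested. In all, 7 of 9 tested feedback genes fell and 1 rose, with a median of -1.25.

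Most of the tested transcription genes linked to ERK activity fell as well, and the PEA3 family of ETS factors fell most. ETV4 was at 64, 51.3 and 48.1 CPM with DMSO and 0.330, 0.467 and 0.346 CPM with nilotinib. Every nilotinib library was below 1 CPM, and ETV4 fell (-7.15, s.e. 0.28). ETV1 was at 26.8, 19.3 and 18.0 CPM with DMSO and 0.735, 0.583 and 0.404 CPM with nilotinib and fell (-5.20, s.e. 0.28). ETV5, the third member, was at 24.5, 19.9 and 18.8 CPM with DMSO and 0.938, 1.14 and 0.692 CPM with nilotinib and fell (-4.51, s.e. 0.31). No library of either group came near the other group for any of these 3 genes. The immediate early gene EGR1 was at 18.9, 22.3 and 9.21 CPM with DMSO and 1.98, 1.28 and 1.82 CPM with nilotinib. DMSO replicate 3 was the lowest of its group and still above all nilotinib libraries, and EGR1 fell (-3.30, s.e. 0.31). The AP-1 genes split. FOSL1 (-1.23, s.e. 0.23) and FOSL2 (-1.56, s.e. 0.20) fell, and so did the early response genes IER3 (-1.5, s.e. 0.19) and MAFF (-1.56, s.e. 0.34). FOS (-1.57, s.e. 0.54) and FOSB (-0.93, s.e. 0.31) fell from about 1 CPM. FOS did not pass without DMSO replicate 2 (-1.55) or nilotinib replicates 2 (-1.35) and 3 (-1.34) and was at -2.32 without nilotinib replicate 1, and FOSB did not pass without DMSO replicate 3 (-0.89) or nilotinib replicates 1 (-0.90) and 2 (-0.92). JUN did not pass (-0.19, s.e. 0.29), nor did JUND (0.29, s.e. 0.12), which passed in 7 of 18 alternatives, or PHLDA1 (0.39, s.e. 0.29). JUNB, which can oppose JUN, was at 44.9, 49.1 and 42.8 CPM with DMSO and 127, 130 and 121 CPM with nilotinib. It was higher in every nilotinib library and rose (1.47, s.e. 0.13), and 14.2% of its exon length is overlapped by HOOK2 on the other strand. Over the list, 11 of 15 tested genes fell and 1 rose, with a median of -1.5. The word CGGAAG, the core that ETS factors bind, lay on either strand of the 250 bases before the start of 3 of the 11 list genes in the RefSeq promoter table (GRCh38.p14), IER2, JUNB and PHLDA1, a share of 27.3% against 16.8% of all 27305 genes in the table and 26.1% of the 11883 tested here. A CArG box, CC then 6 of A or T then GG, the word of serum response factor, was found for EGR1 alone, 9.09% against 1.14% and 0.943%. The table held no entry for ETV4, and among the 7 feedback genes it held none matched either word.

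STAT5 is phosphorylated by BCR-ABL1 in chronic myeloid leukemia cells and by JAK2 below the erythropoietin receptor in normal erythroid cells. Its direct targets include its own inhibitors, the PIM kinases and survival genes. Of the 12 listed targets, all tested, 11 fell and 1 rose, with a median of -2.64, the lowest median of the lists. The lists were written with earlier results of these data known, so this rank is a description only. The repressor gene BCL6 fell most. STAT factors bind TTCNNNGAA, a palindrome that reads the same on both strands. Among the 9 targets with an entry in the RefSeq promoter table (GRCh38.p14), BCL6 and CISH held it in the 250 bases before the first listed start, a share of 22.2%, against 6.78% of all 27305 genes in the table and 5.64% of the 11883 that were tested here. Of the 3189 genes in the table that fell, 5.58% held it. In the other lists the share ran from 0% to 27.8%, the highest in the interferon genes. The promoter of BCL6 is shown as the STAT5 target with the largest fall, at chr3:187745469-187745718 on the minus strand. It lies before the RefSeq start but within the GENCODE gene of BCL6, which reaches 187745727. The match is in capitals:
BCL6 promoter: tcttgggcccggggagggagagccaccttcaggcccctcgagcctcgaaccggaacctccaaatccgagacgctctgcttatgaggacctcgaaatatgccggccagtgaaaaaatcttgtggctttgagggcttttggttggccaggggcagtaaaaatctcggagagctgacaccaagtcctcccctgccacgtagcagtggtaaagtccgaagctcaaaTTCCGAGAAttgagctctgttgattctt

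BCL6 was at 47.3, 66.7 and 93.5 CPM with DMSO and 2.97, 3.50 and 3.83 CPM with nilotinib. The DMSO libraries climbed from replicate 1 to replicate 3, all were far above the nilotinib libraries, and BCL6 fell (-4.33, s.e. 0.46). The feedback inhibitor SOCS2 was at 111, 102 and 94.6 CPM with DMSO and 9.69, 10.5 and 10 CPM with nilotinib. The replicates were tight on both sides, and SOCS2 fell (-3.35, s.e. 0.16). CISH, an inhibitor that STAT5 induces, was at 93.3, 97.1 and 91.7 CPM with DMSO and 13.5, 12.2 and 10.4 CPM with nilotinib and fell (-2.97, s.e. 0.17). SOCS3 (-3.44, s.e. 0.23) and SOCS1 (-1.59, s.e. 0.30) fell as well. Among the PIM kinase genes, whose products need no activating step beyond their synthesis, PIM1 was at 1133, 1177 and 1262 CPM with DMSO and 308, 379 and 423 CPM with nilotinib. It stayed above 300 CPM in every nilotinib library even after a fall of 1.69 in log2 (s.e. 0.24). PIM2 was at 200, 216 and 199 CPM with DMSO and 36.7, 32.4 and 28.4 CPM with nilotinib and fell further (-2.65, s.e. 0.15). PIM3 fell by 1.09, but did not pass with DESeq2 (-1.09) or without DMSO replicate 3 (-1.07) or nilotinib replicates 1 (-1.11), 2 (-1.09) and 3 (-1.14). The cyclin gene CCND2 (-2.81, s.e. 0.31) and ID1 (-2.63, s.e. 0.22) fell, and so did the survival gene BCL2L1 (-1.45, s.e. 0.15), of whose exon length 43.0% is overlapped by ABALON on the other strand. OSM, which encodes the cytokine oncostatin M, was the exception. It was at 0.126, 0.0954 and 0.173 CPM with DMSO and 1.55, 2.71 and 2.02 CPM with nilotinib, low everywhere but higher in each nilotinib library, and rose (3.94, s.e. 0.39).

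**Figure D2:**
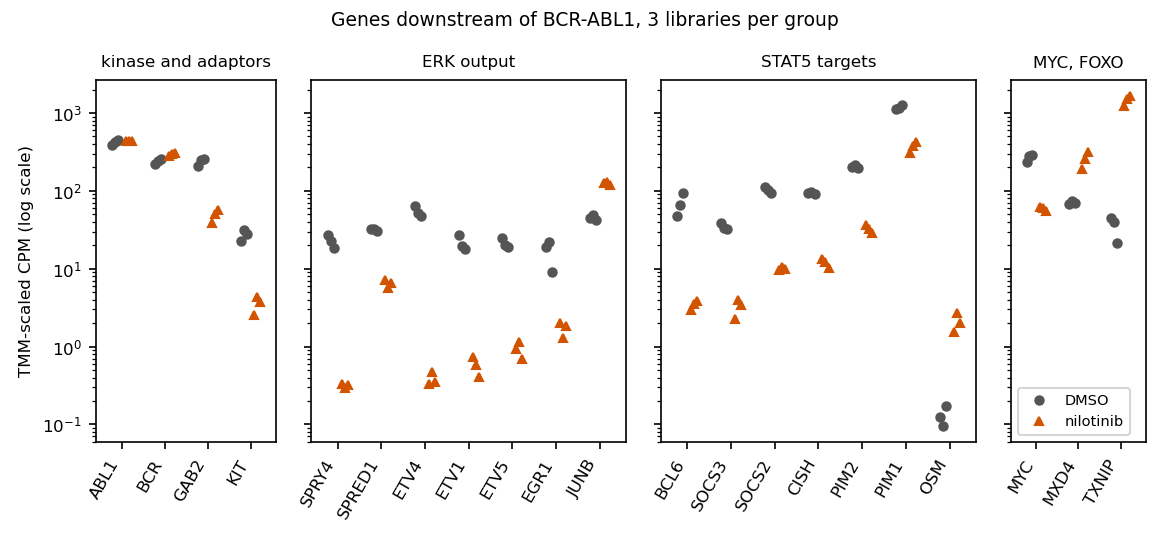
CPM in each library for genes below BCR-ABL1. ETV4 was at 64, 51.3 and 48.1 CPM with DMSO and at 0.330, 0.467 and 0.346 CPM with nilotinib, while the groups overlapped for ABL1.

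AKT keeps FOXO transcription factors out of the nucleus, so FOXO targets can report a drop in AKT activity. TXNIP, an arrestin that limits glucose uptake, was at 45, 40.2 and 21.4 CPM with DMSO and 1236, 1525 and 1633 CPM with nilotinib. It was among the abundant genes only with nilotinib, and rose (5.37, s.e. 0.50). PIK3IP1, an inhibitor of PI3K, was at 4.89, 4.89 and 4.71 CPM with DMSO and 22, 45.2 and 44.8 CPM with nilotinib, with nilotinib replicate 1 at less than the other 2 yet above all DMSO libraries, and rose (2.95, s.e. 0.27). The insulin receptor gene INSR rose (2.44, s.e. 0.22), as did the sestrin gene SESN3 (1.52, s.e. 0.16). The CDK inhibitor gene CDKN1B, a classical FOXO target, did not pass (0.20, s.e. 0.14). Of 20 tested targets 9 rose and 5 fell, with a median of 0.22, so the list was not uniform. The targets that fell were BCL6, also a STAT5 target (-4.33, s.e. 0.46), KLF2 (-1.98, s.e. 0.43), TSC22D3 (-0.88, s.e. 0.21), BNIP3 (-0.75, s.e. 0.14) and KLF6 (-0.62, s.e. 0.13).

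The BCL2 family decides on entry into apoptosis. The BH3-only gene BMF was at 12.5, 19.5 and 28.8 CPM with DMSO and 44.2, 71.3 and 84.4 CPM with nilotinib and rose (1.72, s.e. 0.29), with a climb from replicate 1 to 3 in both groups. BCL2L11, which encodes BIM and is held down by ERK and AKT signalling, was at 28.0, 32.1 and 30.1 CPM with DMSO and 57.3, 63.0 and 59.1 CPM with nilotinib. The groups were apart and tight, and BCL2L11 rose (0.99, s.e. 0.15). MCL1, a short-lived survival factor and the most abundant of the family in FPKM with nilotinib (a mean of 46.0 with DMSO and 32.4 with nilotinib), fell by 0.51. HRK had 9, 5 and 13 counts with DMSO and 0, 2 and 0 with nilotinib, a ratio in CPM of 9.79 with a 95% counting interval of 2.46 to 84.9, and it did not pass without nilotinib replicate 1 (-2.50) or nilotinib replicate 3 (-2.60). Without nilotinib replicate 2, the value for HRK was -5.90, against -3.07 with all libraries. The survival gene BCL2 itself was at about 1 CPM or less and fell (-1.31), though it passed in only 11 of 17 alternatives. Among other members, PMAIP1 fell (-1.17) and BIK rose (1.41). In all, 3 of 15 tested members rose and 8 fell, with a median of -0.48. Cell death was not measured in these libraries.

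MYC drives ribosome production and cell growth, and it competes with the MXD repressors for the partner MAX. MYC was at 233, 279 and 292 CPM with DMSO and 62.8, 60.1 and 54.5 CPM with nilotinib. The nilotinib libraries lay close to each other, far below DMSO, and MYC fell (-2.18, s.e. 0.13). Its paralog MYCL fell (-1.42, s.e. 0.15). MAX fell by 0.46, but did not pass without DMSO replicate 3 (-0.41) or nilotinib replicates 1 (-0.36) and 2 (-0.43), and MLX, another partner, fell (-0.58, s.e. 0.13). On the repressor side, MXD4 was at 68.4, 74.6 and 70.4 CPM with DMSO and 191, 260 and 313 CPM with nilotinib and rose (1.84, s.e. 0.19). MXD3 rose (1.29, s.e. 0.13), with 18.0% of its exon length shared with RAB24 on the same strand and 22.5% with PRELID1 on the other, and MXI1 rose (0.78, s.e. 0.14). MLXIP, a glucose-responsive partner of MLX, rose (0.89, s.e. 0.13). MXD1 (-0.19, s.e. 0.23) and MNT (0.09, s.e. 0.18) did not pass. MGA fell by 0.44, though not past the threshold without DMSO replicates 2 (-0.45) and 3 (-0.41) or nilotinib replicates 2 (-0.45) and 3 (-0.42). Of 11 tested genes, 4 rose and 5 fell.

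Making ribosomes needs RNA polymerase I, processing factors and nucleolar chaperones, many of them MYC targets. Of 31 listed genes 29 fell and 1 rose, with a median of -1.24. DDX21, a nucleolar helicase, was at 501, 555 and 639 CPM with DMSO and 138, 125 and 114 CPM with nilotinib. It had the largest fall of the list (-2.17, s.e. 0.16). The chaperone NPM1, the most abundant of them in FPKM, fell by 1.01 from 984, 1202 and 1259 CPM to 472, 613 and 631 CPM. UBTF, the factor that opens ribosomal DNA for polymerase I, went the other way, at 129, 171 and 170 CPM with DMSO and 444, 457 and 424 CPM with nilotinib. It was the only riser (1.5, s.e. 0.13), and POLR1A, the gene of the large subunit of polymerase I, fell (-1.49, s.e. 0.32). Most genes of the ribosomal proteins did not pass. Of 80 tested, 4 rose and 3 fell, well under the shares over all genes, with a median of 0.05, and these few calls were fragile, as with nilotinib replicate 2 left out 1 rose and 1 fell, with upper-quartile factors 8 rose and 0 fell, and with the 6 libraries alone 7 rose and 4 fell. RPLP0 was at 3098, 3799 and 3696 CPM with DMSO and 3606, 4164 and 4503 CPM with nilotinib and did not pass (0.21, s.e. 0.18), and the most abundant in FPKM, RPS12, did not pass either (0.23, s.e. 0.16). RPS27L, a paralog of RPS27, rose (0.82, s.e. 0.13), and RPL17 fell by 0.60, but not past the threshold without DMSO replicate 1 (-0.57), DMSO replicate 3 (-0.60) or nilotinib replicate 1 (-0.44).

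D-type cyclins bring growth signals to the cell cycle, and K562 has lost the CDKN2A and CDKN2B genes. CDKN2B had no count here. CCND2, also a STAT5 target, was at 44.0, 44.6 and 44.6 CPM with DMSO and 4.59, 6.88 and 7.53 CPM with nilotinib. The DMSO libraries were almost equal and all far above the nilotinib libraries. CCND1 was lower in level and fell (-1.94, s.e. 0.40), while CCND3, the D-type cyclin of erythroid cells, was at 299, 295 and 276 CPM with DMSO and 499, 532 and 518 CPM with nilotinib and rose (0.83, s.e. 0.16). In FPKM, CCND3 was the most abundant of the 3 in both groups, with means of 49.3 and 88.1. CDK6 fell (-0.44, s.e. 0.12) and CDK4 did not pass (-0.05, s.e. 0.15). Among the inhibitors, CDKN1A (p21) fell (-1.01, s.e. 0.18), CDKN2C (p18) rose (0.91, s.e. 0.13), and CDKN2D (p19) fell by 0.57 but did not pass without DMSO replicates 1 (-0.53) and 2 (-0.59) or nilotinib replicates 1 (-0.55) and 2 (-0.55). CDKN1C did not pass (0.29, s.e. 0.24). E2F4, a repressor E2F that is prominent in erythroid cells, rose (0.91, s.e. 0.14), E2F2 rose (0.81, s.e. 0.21), and E2F1 did not pass (0.36, s.e. 0.20). E2F3 fell by 0.35, but did not pass without DMSO replicates 1 (-0.39), 2 (-0.36) and 3 (-0.37) or nilotinib replicates 2 (-0.33) and 3 (-0.33). RBL2 rose by 0.37, but did not pass without DMSO replicates 1 (0.38), 2 (0.35) and 3 (0.32) or nilotinib replicates 2 (0.31) and 3 (0.34). CCNE1 (0.63, s.e. 0.31), CCNE2 (0.45, s.e. 0.23), CDK2 (0.36, s.e. 0.18), RB1 (0.35, s.e. 0.16) and RBL1 (0.03, s.e. 0.18) did not pass.

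Genes of DNA replication did not fall. Of 31 tested, 11 rose and 0 fell, with a median of 0.29. MCM2, a subunit of the replicative helicase, was at 177, 180 and 178 CPM with DMSO and 279, 301 and 306 CPM with nilotinib and rose (0.73, s.e. 0.14). Of 23 mitotic genes 2 rose, 7 fell and 14 did not pass, with a median of -0.23, beside falls of 27.6% among all protein-coding genes tested. PLK1, a mitotic kinase, was at 181, 183 and 183 CPM with DMSO and 108, 112 and 105 CPM with nilotinib, with each group in a narrow band, and fell (-0.75, s.e. 0.12). CCNB1 fell (-0.63, s.e. 0.17), and TOP2A, the most abundant in FPKM, did not pass (-0.12, s.e. 0.14). Proliferation itself was not measured.

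**Figure D3:**
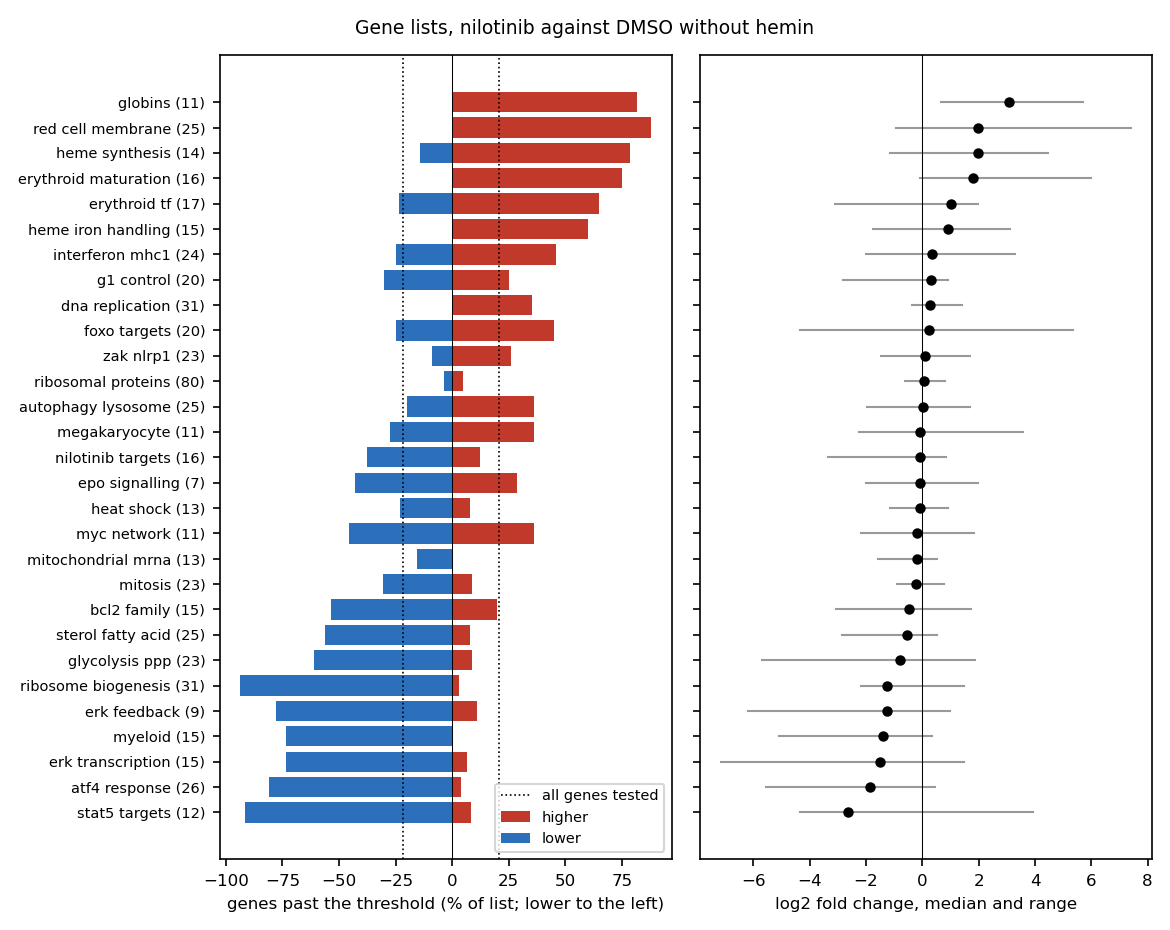
Share of each gene list past the threshold in each direction, with dotted lines at the shares over all genes tested (20.7% higher, 21.8% lower), beside the median and range of log2 fold change. The STAT5 targets had the lowest median (-2.64) and the globins the highest (3.07), among lists written with earlier results of these data known.

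Erythroid identity is set by GATA1 with TAL1, LMO2, LDB1 and KLF1, while GATA2, MYB, RUNX1 and SPI1 mark earlier or other blood cells and are turned down as red cells mature. GATA1 was at 268, 296 and 325 CPM with DMSO and 355, 373 and 400 CPM with nilotinib. All 3 nilotinib libraries were higher, by little, and GATA1 did not pass (0.34, s.e. 0.14). GATA1 passed, though, in 6 of 18 alternatives, among them both fits with the replicate number as a block. Several of its cofactors rose. TAL1 was at 216, 249 and 266 CPM with DMSO and 784, 837 and 916 CPM with nilotinib and rose (1.79, s.e. 0.17). LMO2, the bridge of the complex, was at 39.9, 46.9 and 49.6 CPM with DMSO and 146, 171 and 162 CPM with nilotinib and rose (1.81, s.e. 0.18). The GATA1 partner ZFPM1 (FOG1) rose (1.77, s.e. 0.20), as did LDB1 (0.76, s.e. 0.14). KLF1, which switches on many red cell genes, was at 223, 301 and 330 CPM with DMSO and 682, 747 and 770 CPM with nilotinib. Both groups climbed from replicate 1 to replicate 3 without meeting, and KLF1 rose (1.37, s.e. 0.16). The repressor GFI1B (1.69, s.e. 0.19) rose, as did HEMGN (1.99, s.e. 0.29), a nuclear protein of erythroblasts, and FOXO3 (1.34, s.e. 0.16), which acts late in red cell maturation. BACH1, a repressor that heme inactivates, rose (0.70, s.e. 0.16), IKZF1, a zinc finger factor of blood cells, rose (1.0, s.e. 0.20), and SOX6 did not pass (0.27, s.e. 0.14). 

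GATA2, MYB, RUNX1 and SPI1, named above for earlier or other blood cells, all fell. MYB was at 302, 309 and 311 CPM with DMSO and 38.2, 36.9 and 33.9 CPM with nilotinib. This was the largest fall among the factors (-3.08, s.e. 0.19), with the DMSO replicates almost equal. GATA2 was at 208, 210 and 214 CPM with DMSO and 70.6, 53.9 and 62.1 CPM with nilotinib and fell (-1.76, s.e. 0.18). In FPKM, the means were 195 for GATA1 and 46.6 for GATA2 with DMSO, and 248 and 13.8 with nilotinib. SPI1 (PU.1), the myeloid factor that GATA1 opposes, was at 73.4, 78.7 and 72.7 CPM with DMSO and 17.2, 14.5 and 14.1 CPM with nilotinib and fell (-2.29, s.e. 0.14). RUNX1 was at 129, 135 and 101 CPM with DMSO and 61.1, 41.7 and 30.9 CPM with nilotinib, lowest in the third replicate of each group, and fell (-1.45, s.e. 0.20). Of 17 tested factors 11 rose and 4 fell, with a median of 1.0. BCL11A, ERG and FLI1 had at most 3 counts in a library and were not tested. The AGATAA or TGATAA words that GATA factors bind, which share the letters GATAA and were searched on both strands, lay before the start of 4 of the 14 factor genes in the promoter table, BACH1, TAL1, HEMGN and KLF1, a share of 28.6% against 14.9% of all 27305 genes in the table and 8.56% of those tested.

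The erythropoietin receptor signals through JAK2 and STAT5. EPOR was at 33.8, 41.5 and 49.6 CPM with DMSO and 176, 159 and 160 CPM with nilotinib. It was higher in each nilotinib library and rose (1.99, s.e. 0.18), and JAK2 rose too (1.04, s.e. 0.15). Of the STAT5 genes, STAT5A was at 446, 452 and 494 CPM with DMSO and 218, 210 and 187 CPM with nilotinib and fell (-1.18, s.e. 0.21), while STAT5B did not pass (0.25, s.e. 0.14). LYN, a SRC family kinase of blood cells, fell (-2.01, s.e. 0.13). No erythropoietin is named in the labels, and signalling by the receptor was not measured.

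Hemoglobin genes were a small share of the reads in both groups. The 10 genes counted made up 0.0292, 0.0429 and 0.0606% of counts with DMSO and 0.821, 1.12 and 0.903% with nilotinib. Among the globin genes, HBM, HBA1, HBA2 and HBZ rose most. HBZ, the embryonic alpha-type globin, was at 42.4, 78.9 and 118 CPM with DMSO and 2972, 3273 and 2493 CPM with nilotinib. In DMSO it climbed from replicate 1 to 3, and every nilotinib library was far above them, a rise of 5.19 in log2 (s.e. 0.39). It shares 34.3% of its 150-base words with its pseudogene HBZP1, so their reads cannot be fully told apart. HBA2, an adult alpha-type gene, was at 36.1, 72.1 and 81.4 CPM with DMSO and 2221, 3301 and 3015 CPM with nilotinib and rose (5.49, s.e. 0.29). HBM rose (5.69, s.e. 0.45, or 6.40 without DMSO replicate 3) from under 1 CPM, with nilotinib replicate 3 the lowest of its group and 22.4% of its exon length shared with HBZ and as much with HBZP1 on the same strand. HBZ had far more reads with nilotinib than HBM, so how much of the rise of HBM came from reads of HBZ cannot be told from these counts. The alpha globin chaperone AHSP rose (5.41, s.e. 0.39). On the beta-type side, HBG1 was at 116, 176 and 293 CPM with DMSO and 1045, 2273 and 1598 CPM with nilotinib. Replicates spread widely within both groups, the groups did not meet, and HBG1 rose (3.07, s.e. 0.32). The adult beta gene HBB stayed under 1 CPM in all 6 libraries and the embryonic HBE1 under 3 CPM, and neither passed. Over the list 9 of 11 genes rose and 0 fell, with a median of 3.07.

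Heme is made in a chain of enzyme steps, and the first is carried out by ALAS2 in erythroid cells and by ALAS1 elsewhere. ALAS2 was at 80.3, 160 and 163 CPM with DMSO and 2420, 3352 and 3223 CPM with nilotinib. It rose by 4.48 in log2 (s.e. 0.27), while ALAS1, at 26.3, 29.7 and 29.6 CPM with DMSO and 14.7, 13.2 and 10.9 CPM with nilotinib, fell (-1.14, s.e. 0.15). In FPKM, ALAS2 was above ALAS1 in both groups, with means of 62.3 and 11.1 with DMSO and 1391 and 5.05 with nilotinib. In all, 11 of 14 tested genes rose and 2 fell. The importer of mitochondrial iron, SLC25A37 (mitoferrin 1), was at 686, 946 and 1037 CPM with DMSO and 5635, 7714 and 9537 CPM with nilotinib. That made it one of the most read genes with nilotinib, and it rose (3.10, s.e. 0.24). The ferritin light chain FTL, the most abundant iron gene in FPKM, did not pass (-0.20, s.e. 0.22). HMOX1, which breaks heme down, had at most 7 counts in a library and did not pass. Of 15 iron and heme handling genes 9 rose and 0 fell.

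The red cell membrane is carried by a spectrin skeleton tied to the anion exchanger SLC4A1 (band 3) through ankyrin and protein 4.2. SLC4A1 was at 7.81, 27.4 and 45.8 CPM with DMSO and 3677, 4844 and 5396 CPM with nilotinib. The DMSO libraries climbed several-fold from replicate 1 to replicate 3, and every nilotinib library was far above them. SLC4A1 rose by 7.42 in log2, and by 8.02 without DMSO replicate 3. EPB42 (protein 4.2) binds band 3 and was at 2.37, 6.11 and 9.21 CPM with DMSO and 207, 299 and 341 CPM with nilotinib, with the same order among the DMSO libraries, and rose (5.58, s.e. 0.37). The water channel gene AQP1 rose (4.72, s.e. 0.27). Of 25 tested membrane genes 22 rose and 0 fell, with a median of 1.98. AGATAA or TGATAA lay in 6 of the 19 promoters matched, a share of 31.6%, against 14.9% of all 27305 in the table and 8.56% of the 11883 genes tested. Of the 2275 genes in the table that rose, 10.2% held either word. The share was 27.3% of 11 heme synthesis genes, 20% of 10 red cell maturation genes and 0% of 11 iron and heme handling genes. Outside the red cell lists it was 25% of 8 megakaryocyte genes, 16.7% of 18 interferon genes and 0% of 12 myeloid genes. The promoter table had no entry for SLC4A1, so the next largest rise of the membrane list, EPB42, is shown, at chr15:43221019-43221268 on the minus strand (RefSeq, GRCh38.p14). The GENCODE gene of EPB42 reaches 43221125, so part of the window lies within it. AGATAA is in capitals at 2 places:
EPB42 promoter: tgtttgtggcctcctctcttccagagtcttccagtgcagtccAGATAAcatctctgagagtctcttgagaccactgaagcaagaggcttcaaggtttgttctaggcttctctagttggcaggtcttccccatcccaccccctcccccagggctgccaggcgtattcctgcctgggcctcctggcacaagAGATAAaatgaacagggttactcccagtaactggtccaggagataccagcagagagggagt

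Other genes of maturing red cells moved the same way, 12 of 16 higher and 0 lower. Carbonic anhydrase gene CA1 was at 3.53, 10.4 and 15.2 CPM with DMSO and 631, 632 and 574 CPM with nilotinib and rose (5.98, s.e. 0.42). PKLR, the pyruvate kinase of red cells and liver, was at 75.8, 119 and 180 CPM with DMSO and 833, 1082 and 1217 CPM with nilotinib, again in ascending order in both groups, and rose (3.06, s.e. 0.27). Megakaryocyte genes were mixed, 4 of 11 tested higher and 3 lower. The platelet tubulin gene TUBB1 was at 7.27, 17.7 and 25.5 CPM with DMSO and 191, 207 and 205 CPM with nilotinib and rose (3.58, s.e. 0.31), with 34.0% of its exon length overlapped by ATP5F1E on the other strand, the integrin gene ITGA2B fell (-1.65, s.e. 0.30), and PLEK, a platelet kinase substrate, fell from under 1 CPM (-2.24, s.e. 0.51). PF4, GP1BB and TREML1 had no count.

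Myeloid genes fell or did not pass. Of 15 tested among 20, 11 fell and 0 rose, with a median of -1.39, and their summed level was 284, 320 and 296 CPM with DMSO and 96.7, 92.1 and 92.8 CPM with nilotinib. CEBPB, a myeloid transcription factor and the most abundant of them in FPKM, was at 139, 177 and 173 CPM with DMSO and 58.5, 49.3 and 41.1 CPM with nilotinib and fell (-1.72, s.e. 0.35). The granulocyte growth factor receptor gene CSF3R was at 16.0, 17.2 and 13.8 CPM with DMSO and 0.431, 0.613 and 0.346 CPM with nilotinib. It lost nearly all its reads (-5.07, s.e. 0.30). The surface protein gene CD33 was at 33, 33.4 and 29.4 CPM with DMSO and 2.99, 2.83 and 1.96 CPM with nilotinib and fell (-3.62, s.e. 0.21), the integrin gene ITGAM (CD11b) fell from 5 to 6 CPM to under 1 (-4.75, s.e. 0.32), and the lysozyme gene LYZ fell (-3.20, s.e. 0.26). The granule genes MPO, ELANE and CTSG were too low to test.

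**Figure D4:**
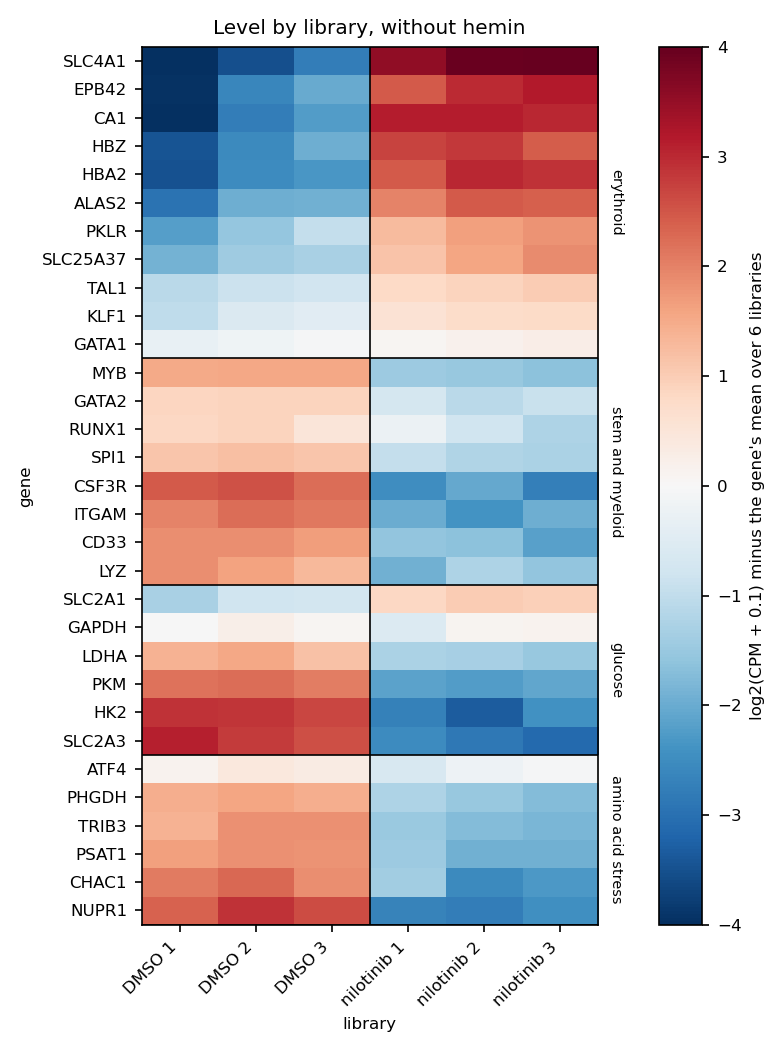
Level of selected genes in each library, centred on the mean of the gene over the 6 libraries. SLC4A1 rose by 7.42 and MYB fell by 3.08, while GATA1 changed by 0.34.

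Glucose use is among the best known outputs of BCR-ABL1 signalling. The glucose transporter gene SLC2A3 (GLUT3) was at 155, 127 and 108 CPM with DMSO and 3.09, 2.39 and 2.02 CPM with nilotinib. It fell to near 2 to 3 CPM (-5.69, s.e. 0.24), and HK2, the inducible hexokinase that takes the first step, was at 64.1, 62.5 and 55.6 CPM with DMSO and 1.24, 0.758 and 1.53 CPM with nilotinib and fell (-5.68, s.e. 0.25). PKM, the pyruvate kinase of most tissues and tumors, was at 614, 647 and 566 CPM with DMSO and 31.1, 28.8 and 32.5 CPM with nilotinib. Its replicates were close, its fall was -4.30 in log2 (s.e. 0.20), and the rise of PKLR given above ran against it. In FPKM, PKM went from a mean of 70.2 to 3.56 and PKLR from 38.9 to 326, so their order was reversed. LDHA, which makes lactate, was at 785, 875 and 679 CPM with DMSO and 125, 119 and 104 CPM with nilotinib and fell (-2.75, s.e. 0.29). SLC2A1 (GLUT1), the glucose transporter of red cells, rose instead, at 242, 345 and 355 CPM with DMSO and 1060, 1196 and 1153 CPM with nilotinib (1.86, s.e. 0.17). GAPDH, which is often used as a reference gene, overlapped between the groups and did not pass (-0.17, s.e. 0.20). Of 23 genes of glycolysis and the pentose phosphate pathway 14 fell and 2 rose, with a median of -0.79.

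ATF4 drives genes for amino acid uptake and serine synthesis, and growth signalling through mTORC1 keeps it up. ATF4 RNA, at 482, 580 and 541 CPM with DMSO and 280, 381 and 417 CPM with nilotinib, was lower in each nilotinib library but did not pass (-0.57, s.e. 0.27). Of its 26 listed genes 21 fell and 1 rose, with a median of -1.84. The stress gene NUPR1 was at 15.5, 22.7 and 18.3 CPM with DMSO and 0.380, 0.350 and 0.461 CPM with nilotinib and fell furthest (-5.56, s.e. 0.52). PSAT1, of serine synthesis, was at 284, 318 and 314 CPM with DMSO and 33, 23.7 and 23.8 CPM with nilotinib and fell (-3.51, s.e. 0.46). PHGDH, the enzyme before it, was at 561, 622 and 563 CPM with DMSO and 87.7, 71.6 and 62.4 CPM with nilotinib and fell (-2.98, s.e. 0.52), and the pseudokinase gene TRIB3 fell (-3.36, s.e. 0.24). SLC6A9, a glycine transporter of erythroid cells, rose by 0.45, but passed in 0 of the 6 fits that left out a library (0.28 to 0.52) and not with DESeq2 (0.45). Protein and phosphorylation of ATF4 were not measured. Genes of sterol and fatty acid synthesis fell in 14 of 25 cases and rose in 2, with a median of -0.54. SCD, which makes monounsaturated fatty acids, fell (-1.53, s.e. 0.21), and MVD rose by 0.51 but did not pass without DMSO replicates 1 (0.51), 2 (0.48) and 3 (0.47) or nilotinib replicates 2 (0.48) and 3 (0.34).

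Interferon genes went both ways, 11 of 24 tested higher and 6 lower. OAS3, a sensor of double-stranded RNA, was at 15.6, 19.4 and 15.1 CPM with DMSO and 160, 186 and 147 CPM with nilotinib and rose (3.30, s.e. 0.20). IFITM2 fell (-2.0, s.e. 0.26), as did its neighbor IFITM1 (-1.06, s.e. 0.20), the most abundant of the list in FPKM, and the 2 share exon positions on the same strand over 22.7% of IFITM2. The nonclassical class I gene HLA-E fell (-1.69, s.e. 0.26). Autophagy and lysosome genes rose in 9 and fell in 5 of 25 cases. ATG14, which starts autophagosomes, was at 14.0, 14.3 and 15.6 CPM with DMSO and 36.6, 51 and 55.8 CPM with nilotinib and rose (1.71, s.e. 0.21), ATG5 fell (-0.82, s.e. 0.12), and the cathepsin gene CTSB rose (0.82, s.e. 0.15). Heat shock genes mostly did not pass, with 1 of 13 higher and 3 lower. The regulator HSF1 rose (0.90, s.e. 0.14), the mitochondrial chaperone gene HSPD1 fell (-1.15, s.e. 0.16), and HSP90AB1, at 2352, 2543 and 2542 CPM with DMSO and 1701, 1526 and 1424 CPM with nilotinib, fell (-0.68, s.e. 0.19), though it did not pass with limma on log2 of FPKM plus 1 (-0.68). Of the 13 mitochondrially encoded mRNAs 2 fell and 0 rose. MT-ND2 was at 4630, 6527 and 6221 CPM with DMSO and 2378, 1850 and 1637 CPM with nilotinib and fell (-1.57, s.e. 0.27), and MT-CO3, the most abundant in FPKM with DMSO, was lower in each nilotinib library without passing (-0.70, s.e. 0.28). All counts on the mitochondrial chromosome together were 6.02, 7.35 and 6.66% with DMSO and 7.60, 6.22 and 5.24% with nilotinib, so the groups overlapped.

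Genes often used to scale RNA measurements were not all stable. ACTB was at 1826, 2213 and 2056 CPM with DMSO and 1144, 1145 and 1199 CPM with nilotinib and fell (-0.81, s.e. 0.19). PGK1, also a glycolytic gene, fell (-1.37, s.e. 0.17), and GUSB rose by 0.41 but passed in 0 of the 6 fits that left out a library (0.33 to 0.42). Of 12 such genes 3 fell and 2 rose, close to the shares over all genes tested (21.8% lower and 20.7% higher).

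The kinase ZAK (gene MAP3K20) senses stalled ribosomes and, through p38, can activate the NLRP1 inflammasome, a route described in erythroid cells. MAP3K20 was at 56.9, 56.3 and 61.5 CPM with DMSO and 98.0, 90.6 and 79.6 CPM with nilotinib and rose (0.62, s.e. 0.12). MAP2K3, which activates p38, was at 12.4, 13.8 and 14.0 CPM with DMSO and 43.6, 41.2 and 45.4 CPM with nilotinib. It rose most of the pathway (1.69, s.e. 0.22), and MAPK14 (p38 alpha) was at 86.1, 85.6 and 87.7 CPM with DMSO and 152, 177 and 173 CPM with nilotinib and rose (0.95, s.e. 0.13). NLRP1 was at 156, 136 and 140 CPM with DMSO and 206, 205 and 261 CPM with nilotinib, with nilotinib replicate 3 the highest. It rose by 0.64, past the threshold by little (adjusted p 0.0493 in edgeR's quasi-likelihood test, Benjamini-Hochberg adjusted), and it passed in 0 of the 6 fits that left out a library (0.48 to 0.69). The genes of the proteases DPP8 (-0.12, s.e. 0.13) and DPP9 (-0.21, s.e. 0.18), which bind NLRP1, did not pass. CARD8, a relative of NLRP1, rose (0.89, s.e. 0.14). PYCARD, the adaptor ASC, fell (-1.48, s.e. 0.30) from under 10 CPM, and 59.7% of its exon length lies under an antisense gene. LRRFIP1 fell (-0.90, s.e. 0.12). CASP1, the caspase that inflammasomes activate, had a single count in the 6 libraries, and AIM2 and MAP2K6 were also too low to test. GSDMD, the pore protein gene, rose by 0.57, but did not pass without DMSO replicates 2 (0.49) and 3 (0.45) or nilotinib replicate 2 (0.53), and IL18 (0.13, s.e. 0.32) and IL1B (0.86, s.e. 0.61) did not pass. The p38 relatives MAPK11 (-0.40, s.e. 0.19), MAPK12 (0.35, s.e. 0.14) and MAPK13 (-0.01, s.e. 0.26) did not pass, nor did the JNK kinase genes MAPK8 (-0.29, s.e. 0.12) and MAPK9 (-0.21, s.e. 0.14) or their activators MAP2K4 (-0.24, s.e. 0.14) and MAP2K7 (0.24, s.e. 0.12). NLRC4 (-0.43, s.e. 0.38), FLII (-0.12, s.e. 0.13) and CASP4 (0.10, s.e. 0.59) did not pass either, and NLRP3 had at most 4 counts in a library. In all, 6 of 23 tested genes rose and 2 fell, close to the share over all genes for the rise and below it for the fall. Inflammasome activity was not measured.

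The largest changes among well-read protein-coding genes were also outside these pathways. PPP2R2C, a regulatory subunit of the phosphatase PP2A, had 3, 2 and 2 counts with DMSO and 1564, 1763 and 1409 with nilotinib. The ratio in CPM was 933-fold (453 to 2323) with its 95% counting interval, the largest rise of all such genes. The actin bundler gene ESPN was at 13.3, 31.1 and 36.2 CPM with DMSO and 1447, 1961 and 1996 CPM with nilotinib and rose (6.07, s.e. 0.33), already present with DMSO and among the abundant genes with nilotinib. ART4, which carries the Dombrock blood group, was at 0.0360, 0.0238 and 0.154 CPM with DMSO and 6.21, 7.79 and 9.92 CPM with nilotinib and rose (6.71, s.e. 0.44, or 7.85 without DMSO replicate 3). The inflammatory regulator gene NLRC5 (6.87, s.e. 0.54), the protease gene CTSE (6.35, s.e. 0.34) and the chloride channel gene ANO1 (6.23, s.e. 0.42, or 6.92 without DMSO replicate 3) rose from under 1 CPM. RLN3, a relaxin gene, rose (7.36, s.e. 0.30) together with AC022098.2 (7.52, s.e. 0.34), which covers 27.2% of its exon length on the other strand, so reads of the 2 cannot be told apart where strand was not kept. Among the falls, KLHDC7B had 453, 650 and 729 counts with DMSO and 1, 0 and 1 with nilotinib, a ratio in CPM of 664-fold (184 to 5486). INHBE, an inhibin subunit gene induced by ATF4, was at 88.6, 102 and 91.6 CPM with DMSO and 1.09, 0.788 and 0.807 CPM with nilotinib and fell (-6.70, s.e. 0.54). MARCKS, a substrate of protein kinase C, was at 18.8, 16.3 and 10 CPM with DMSO and 0.178, 0.0583 and 0.173 CPM with nilotinib and fell (-6.74, s.e. 0.36). The vitamin B12 binding protein gene TCN1 was at 11, 5.49 and 1.83 CPM with DMSO and 0.0254, 0.146 and 0 CPM with nilotinib. Its DMSO libraries dropped from replicate 1 to 3, and it fell (-6.70, s.e. 0.79), by less without DMSO replicate 1 (-6.00) and by more without nilotinib replicate 2 (-8.56). APOL4 (-6.71, s.e. 0.38, or -7.58 without nilotinib replicate 2), TMEM154 (-6.55, s.e. 0.38) and SPRR2D (-6.53, s.e. 0.50) fell to under 1 CPM. Among genes that code for no protein, AC072022.2 had 307, 282 and 485 counts with DMSO and none with nilotinib, a fall of at least 211-fold by the 95% counting limit. It lies across from BCL6, which overlaps 27.8% of its exon length, and both fell. AC117500.5 had 386, 220 and 157 counts against 2, 0 and 0, a ratio in CPM of 277-fold (76.3 to 2287). It fell (-7.88, s.e. 0.71), or by more without nilotinib replicate 1 (-10.66), and AL034397.3 fell (-7.59, s.e. 0.38). AP003555.3 (6.62, s.e. 0.48, or 5.94 without DMSO replicate 1) and AC003043.2 (6.28, s.e. 0.65, or 7.18 without DMSO replicate 3) rose.

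The direction of change differed between classes of genes. Of 14208 protein-coding genes tested, 19.2% rose and 27.6% fell, while of 1752 antisense genes 26.0% rose and 8.73% fell, and of 1564 lincRNAs 26.9% and 12.8%. In the quintile of genes with the shortest exon length (median 623 bases), 21.9% rose and 9.05% fell, and in the longest quintile (median 9292.5 bases) 22.3% and 25.9%. Between chromosomes the share of higher genes ran from 17.6% on chromosome 13 to 25.8% on chromosome 22 and 33.3% of the 36 mitochondrial genes. Protein-coding genes made up 96.2, 96.4 and 96.4% of counts with DMSO and 94.6, 95 and 95.1% with nilotinib. These are shares of tested genes, whose levels differ between the classes. By quintile of mean level, from lowest to highest, 9.92, 15.6, 24.9, 32.0 and 26.8% of genes fell. In the same order, 13.0, 21.7, 25.8, 18.5 and 24.4% rose. The part of level in the shares of the classes was not tested. Reads of overlapping genes cannot be told apart where strand was not kept, and besides the overlaps given above, the other strand held TSPAN31 on 43.2% of the exon length of CDK4, INTS8 on 37.1% of CCNE2, AC011446.2 on 30.8% of IER2, IER3-AS1 on 26.5% of IER3, DPP9-AS1 on 18.4% of DPP9, AC007342.6 and AKTIP together on 18.2% of RBL2, PSMC3IP on 18.1% of MLX, HCN3 on 17.6% of PKLR, AC025162.1 and PMEL together on 16.8% of CDK2 and AC011611.3 and AC011611.4 together on 16.5% of PHLDA1. On the same strand RPL17-C18orf32 covered 24.8% of RPL17 and HDAC10 29.3% of MAPK12. Shares of 10 to 15% were found for TAL1, GAPDH, CCND2, PLK1, MNT, CEBPB, ANO1 and CCND1. Of the 150-base words of HBG1, 16.6% also lay in AC104389.5 and 12.5% in HBG2, and for MT-ND2 15.7% lay in MTND2P28 and for FOXO3 7.20% in FOXO3B.

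Nilotinib acted differently in the libraries with hemin on 6271 genes (30.1%) in the same fit, at an adjusted p under 0.05 for the difference in edgeR's quasi-likelihood test, Benjamini-Hochberg adjusted. Among the 8851 genes that passed without hemin, 2971 did so, and 1970 of those moved in the same direction in both settings. Of these, 1419 moved further with hemin and 551 less far. The compared effects share no library. By the methods the libraries with hemin also had a further 24 h in culture, so hemin and the longer time after nilotinib was added cannot be told apart in this comparison. ANKRD26P1, a pseudogene, rose by 1.15 without hemin and changed by -4.90 with it. CLU, the clusterin gene, rose by 1.39 without hemin and changed by -4.64 with it. PLVAP, an endothelial membrane gene, rose by 1.70 and changed by -3.12. All 3 were near or under 4 CPM without hemin, where ANKRD26P1 did not pass without DMSO replicates 2 (0.97) and 3 (1.10) or nilotinib replicates 1 (1.18), 2 (1.11) and 3 (1.12). PLVAP did not pass without DMSO replicates 1 (1.38) and 3 (1.76) or nilotinib replicates 2 (1.63) and 3 (1.44), and CLU did not pass with limma on log2 of FPKM plus 1 (0.35). At the other end, the noncoding AL137076.1 rose by 5.49 without hemin and by 11.08 with it, and AL031848.1 by 5.46 and 10.81.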

How the data were processed

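The authors deposited raw read counts per gene, and their notes name GRCh38.p12 and DESeq2. They also deposited FPKM, which are counts per kilobase of the listed gene length divided by a factor per library. Gene names and positions were those of GENCODE release 29 for all 58735 genes. Aligner, counting program and strandedness were not given in the sources used here. RNA of K562 cells was sequenced in 12 libraries, 3 per condition, grouped by label. From the counts, edgeR 4.0.16 in R 4.3.3 filtered genes (filterByExpr with the 4 conditions as groups, minimum count 10, minimum total 15), scaled by TMM and fitted 1 mean per condition over 12 libraries. The contrast was mock nilotinib minus mock DMSO, two-sided, with Benjamini-Hochberg adjustment over all 20821 genes tested. The difference of nilotinib effects with and without hemin came from the same fit. CPM are TMM-scaled counts per 1000000. The 6 libraries compared held 33457078 to 50506990 counts, and 3 counts, the limit that a count of 0 allows, were 0.0540 to 0.0875 CPM. Intervals of ratios (95%) and this limit cover counting error only. The biological coefficient of variation was 0.198.

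Named genes were the 10 largest rises and 10 largest falls of protein-coding genes that averaged 100 or more counts and did not overlap between groups, and members of gene lists. The members and lists were chosen with earlier results of these data known. Lists were described by counts and medians, without a test of the list. Single values of 4 list genes are not reported here, and the counts and medians include them. Promoters were 250 bases before the first listed start, searched on both strands. The scripts were tested on simulated counts. Alternatives used DESeq2 1.42.0, other scaling factors and filters, limma 3.58.1 on FPKM, thinning, a replicate block and each library left out.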

Additional observations from a re-analysis of the deposited data

Results flagged for a closer look

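The effect of nilotinib differed between libraries with and without hemin by a test of the difference (edgeR's quasi-likelihood test, Benjamini-Hochberg adjusted, threshold 0.05) for 6271 genes. Values below are differences in log2, effect with hemin minus effect without, for genes chosen by name that passed this test, and a positive value means a higher fold change with hemin. The libraries with hemin also had a further 24 h in culture, so hemin and time cannot be told apart. No explanation was tested.

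Among the genes with the largest changes the differences were SLC4A1 2.35, ESPN 3.07, CA1 2.04, KLHDC7B 4.74, APOL4 1.92, INHBE 2.83 and NLRC5 -2.36. AC072022.2 had 0 counts in all 3 nilotinib libraries without hemin, so its fitted difference of 8.91 has no exact size. With nilotinib and no hemin AC117500.5 had 2, 0 and 0 counts and KLHDC7B 1, 0 and 1, so the sizes of their differences are not exact either. For other noncoding genes the differences were AC117500.5 6.11, AL034397.3 3.96, AL137076.1 5.60 and AL031848.1 5.35. The pseudogene ANKRD26P1 had -6.05, CLU -6.03 and PLVAP -4.81. Among targets and adaptors the values were DDR2 -2.28, NQO2 0.98, CBL -0.73, INPP5D 1.14, CSF1R -3.66 and CRKL -0.56. ERK-linked genes had DUSP5 -1.66, SPRY2 1.01, DUSP4 -2.03, JUNB -0.89, IER3 -1.54, FOSL2 -1.95, FOSB -4.37, FOS -3.81 and JUN -2.99. STAT5 targets had SOCS2 1.42, PIM2 2.01, CISH 1.76, ID1 0.83, OSM -3.56, BCL2L1 2.02 and PIM1 1.20, and the FOXO target TXNIP had -2.30.

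In the MYC network and ribosome genes the values were MYC 0.71, MXD3 1.16, MYCL 0.66, MLXIP 0.80, MGA 0.70, MXD1 -2.04, MNT 0.98, UBTF 1.39, RPS27L -0.61 and RPS12 -0.73. Cell cycle genes had CDKN2C 0.57, CDKN1A -3.31, CDKN1C -1.28, E2F1 1.16, E2F2 1.25, E2F3 0.68, RBL1 0.93 and RBL2 0.58. Blood cell factors had MYB 2.81, TAL1 1.26, LMO2 1.61, GATA1 0.66, GATA2 0.72, ZFPM1 0.91, GFI1B 3.13, KLF1 3.35 and RUNX1 1.64. Other such factors had HEMGN 3.42, NFE2 2.45, LDB1 1.32, IKZF1 1.07 and BACH1 0.76. Erythroid and other lineage genes had EPOR 2.36, ALAS2 1.04, ALAS1 -0.73, SLC25A37 2.36, TUBB1 2.13 and CSF3R 1.34. Metabolic genes had SLC6A9 1.01, SCD 1.28 and SLC2A1 1.29. Interferon, autophagy and heat shock genes had OAS3 0.94, ATG14 -1.21, ATG5 -0.53, HSPD1 -1.58 and HSP90AB1 -1.70. In the ZAK pathway the values were MAPK14 1.28, CARD8 0.77, MAPK8 0.47 and NLRP3 -3.71. Mitochondrial mRNAs had MT-ND2 1.57 and MT-CO3 2.32, and the collagen gene COL1A1 had -1.52.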

How the results depend on the processing

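The count of 8851 genes was 8996 with DESeq2, 8804 with RLE factors, 8897 with upper-quartile factors, 8695 without composition factors, 8971 and 7498 under looser and stricter filters, 8647 after thinning and 8337 and 8526 on FPKM. It was 7103 to 7895 with a library left out, 10799 with the 6 libraries alone, and 4872 at 2-fold or more. Upper-quartile scaling shifted the median of all genes to 0.11 and the share of higher genes among those past the threshold from 48.6% to 57.0%, and without composition factors it was -0.0222. The count of 6271 was 6721 with DESeq2, 6490 under the looser filter and 4862 to 6775 with a library left out. Of 205 named genes, 157 passed, 132 of them in every alternative, and 21 of those that did not pass did so in at least 1 alternative. On FPKM plus 1, the added 1 made changes of low genes smaller, as for ETV4 (-3.84).

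With the replicate number as a replicate block, 9294 genes passed over 12 libraries and 11125 over 6, and 6845 for the difference. Same-numbered DMSO and nilotinib libraries without hemin correlated in their deviations at r = 0.0948, 0.0869 and 0.0989 over all genes tested, and at 0.154, 0.198 and 0.158 over the 12495 genes with a mean of at least 100 counts. In both sets each of these libraries correlated best with its own number in the other group. Same-numbered nilotinib libraries without and with hemin correlated at 0.263, 0.199 and 0.254, and at 0.424, 0.450 and 0.451. For the libraries compared, the check was under 0.1 on all genes and over it on well-read genes, while for nilotinib without and with hemin it was over 0.1 on both. With hemin, same-numbered DMSO and nilotinib libraries had -0.00712, 0.0818 and 0.235 over all genes. The second principal component put both groups without hemin in the order of their numbers (-10.7, 4.22 and 9.84 for DMSO, -45.5, 8.35 and 33.8 for nilotinib). No label says what a number shares, so this is a hint from the data, and the reported fit has no block. GATA1 passed with the block over 12 libraries and over 6, while BCR, JUND, ATF4 and MT-CO3 passed with it over 6 alone but not over 12. Under the block, CASP4 was -0.00454, the ZAK list median -0.00454 over 12 libraries and -0.0207 over 6, and the median of the nilotinib targets 0.0441 over 6.

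Among the 205 named genes, those that changed sign did not pass in the reported fit. With a library left out these were CRKL (-0.0263 to 0.0745), ABL1 (-0.0553 to 0.0735), RBL1 (-0.0788 to 0.122), GAPDH (-0.316 to 0.0162), IL18 (-0.151 to 0.436), CASP4 (-0.671 to 0.380) and MAPK13 (-0.148 to 0.0997). With upper-quartile factors CDK4 was 0.0629 and MAPK13 0.0966. Of the counts of higher or lower genes per list, 87 moved by more than 1.5 times under an alternative and 873 did not, and those of ribosomal proteins moved most often. List medians also changed sign. With upper-quartile factors they were 0.0318 for nilotinib targets, 0.0292 for erythropoietin signalling, 0.0366 for megakaryocyte genes and 0.0152 for heat shock genes. With at least 10 counts in each library they were 0.0792 for megakaryocyte, -0.0404 for interferon and -0.0600 for ZAK genes. With the 6 libraries alone they were 0.0450 for nilotinib targets and -0.0109 for ZAK genes. Autophagy genes had -0.00612 without composition factors and -0.00782 under the looser filter. With a library left out the medians were -0.0207 to 0.106 for ribosomal proteins, -0.250 to 0.169 for megakaryocyte genes, -0.0502 to 0.0411 for autophagy genes and -0.151 to 0.191 for ZAK genes. The causes were not tested.

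A single time, dose and cell line were compared in these 6 libraries, and groups of 3 limit small changes. Library size differed between the groups.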
